A study of Mus musculus with 10 samples.

Results

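The Frizzled receptors are the family of seven-pass membrane proteins that bind WNT ligands at the cell surface, and their transcripts were measured here in whole mouse embryos. The family was taken as Fzd1 to Fzd10, matched by gene symbol, and 10 of 10 members were found among the 20006 genes of the deposited table. Embryos at embryonic day 7.5, during gastrulation, were either mutant for both Axin1 and Axin2 (labelled DKO, n = 5) or wild type (WT, n = 5). Each library came from 1 embryo, and bulk RNA-seq was used to compare the genotypes. The labels name no treatment, and the construction of the Axin alleles, the strain, the sex and the litter of each embryo were not known here. Because no label says that the embryos came from separate litters, p-values measure only the spread between these embryos.

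Frizzled proteins carry an extracellular cysteine-rich domain in which the lipid of a WNT ligand is held. In the canonical pathway a Frizzled and the co-receptor Lrp5 or Lrp6 together bind the ligand, the cytoplasmic adaptor Dishevelled is recruited to the Frizzled, and the complex of Axin, APC and the kinases that mark β-catenin for destruction is inhibited. Axin1 and Axin2 are the scaffolds of that complex, and Axin2 is also a transcriptional target of the pathway. Frizzleds also act without β-catenin, with the Ror receptor kinases and in planar cell polarity. In the gastrula, WNT signalling is needed for the primitive streak and for mesoderm, and it is restrained at the anterior end. Vertebrate Frizzleds fall into 4 subfamilies, which are Fzd1, Fzd2 and Fzd7; Fzd5 and Fzd8; Fzd4, Fzd9 and Fzd10; and Fzd3 and Fzd6.

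Values are scaled counts, which are read counts divided by 1 size factor per embryo. The libraries held 20744547 to 28505209 reads over the listed genes, and 3 reads, used as the floor of detection, equalled 2.51 to 3.41 scaled counts. Axin1 had 1319, 1134, 1108, 2336 and 820 scaled counts in mutants 1 to 5, against 3314, 3764, 3509, 3325 and 3843 in WT 1 to 5. Its log2 fold change was -1.49 (SE 0.21, limma adjusted p = 0.000614), and the library labelled mutant 4 stood at 65.8% of the WT mean, the other mutants together at 30.8%. Axin2 averaged 448 ± 114 in mutants and 441 ± 43.1 in WT (SD, n = 5 each; limma adjusted p = 0.981), and neither gene's reads can be assigned to the altered part of the allele here. Mutant 4 also lay apart from the other mutants over all genes, at 16.6 on the first principal component (47.7% of the variance), where the other mutants ranged from 62.3 to 78.4 and WT embryos from -73.3 to -51.8. Its extra-embryonic ectoderm and trophoblast markers summed to 58839 scaled counts, against 12232 to 16603 in the other mutants and 14842 to 20201 in WT embryos. Elf5 went the other way, with 146 in mutant 4, the lowest value of all embryos. Each other marker of the list was highest in mutant 4. Mutant 3 had the highest sum of 5 maternal decidua markers, 8477 scaled counts, beside 514 to 3723 in the other mutants and 215 to 558 in WT embryos. Results that rest on mutant 4 or on another single embryo are therefore given with and without it. Markers of each of 12 embryonic, extra-embryonic and maternal cell types had reads, although the labels name embryos and no maternal tissue.

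Fzd2, Fzd7 and Fzd8 had lower values in every mutant than in any WT embryo, Fzd10 had a higher value in every mutant than in any WT embryo, and Fzd6 was lower by a smaller margin with 1 mutant inside the WT range. In all, 5 of 10 members passed the limma test (adjusted p below 0.05), 4 of them lower and 1 higher, where 25.1% of the 15429 tested genes passed, 13.8% lower and 11.4% higher. The ranges of the genotypes did not overlap for 4 members, 3 lower and 1 higher, against 17.1% of all tested genes, 9.97% lower and 7.14% higher. The median log2 fold change over the 10 members was -0.57, against 0.01 over all tested genes. The count of all genes called, 3877 with all embryos, was 2505 without WT 5. Without mutant 4, limma called 5 members again, 4 lower and 1 higher, where 29.4% of all tested genes passed, 16% lower and 13.4% higher. These are transcript levels of whole embryos, in which fewer cells of a type and less RNA per cell cannot be told apart.

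**Figure D1:**
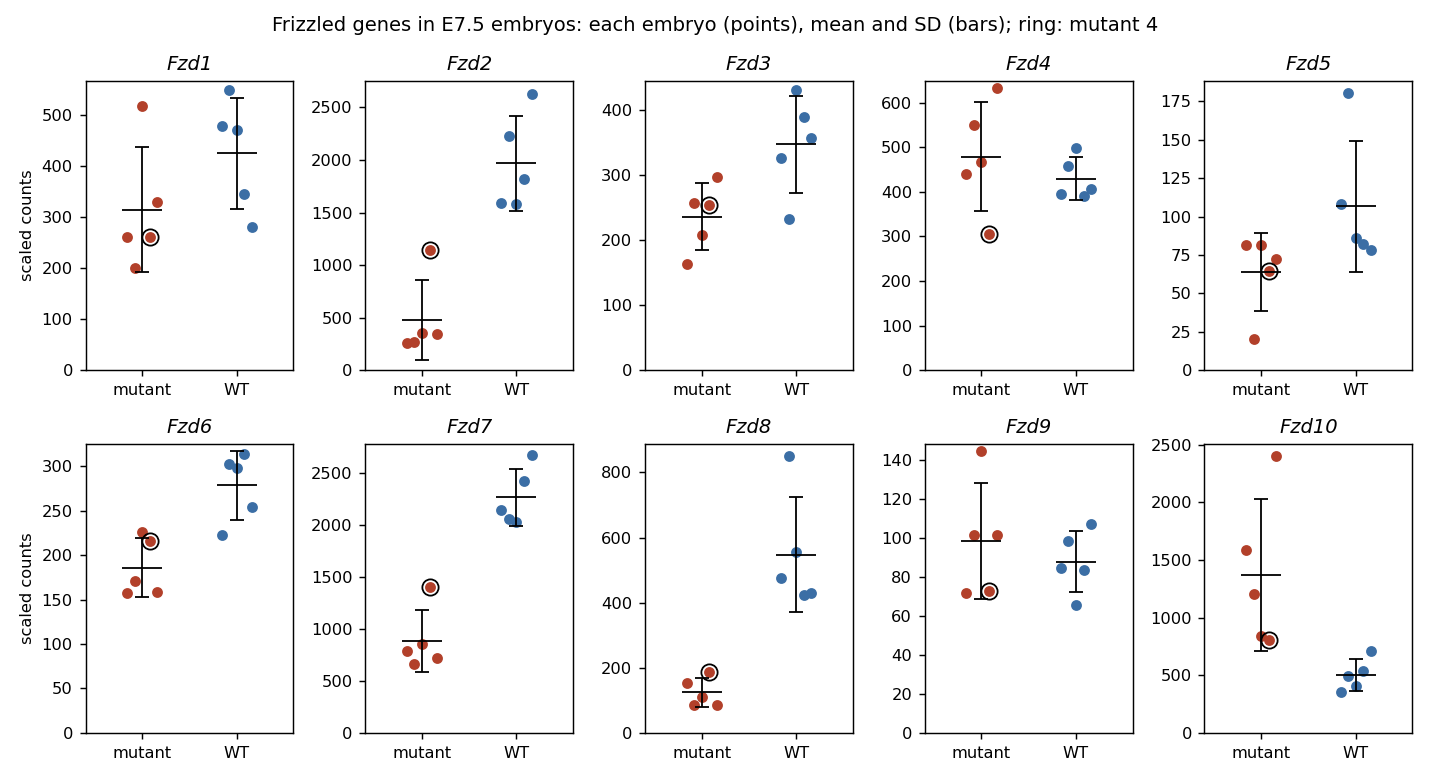
Scaled counts of the 10 Frizzled genes on linear axes that start at 0, each point 1 embryo and the bars the group mean and SD, with mutants left of WT and a ring around mutant 4. Fzd2, Fzd7 and Fzd8 mutants lie below every WT embryo, Fzd10 mutants lie above, and mutant 4 is the mutant nearest to WT for these 4 genes.

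The first subfamily joins Fzd1, Fzd2 and Fzd7, receptors with overlapping functions in mouse development. All are single-exon genes whose coding sequences share identical stretches, and these are shown because a read lying wholly within one matches both genes and so could not be assigned to 1 of them. The longest runs are given 5′ to 3′ on the coding strand, from the GENCODE M21 transcripts on mm10, and no letter is in capitals because the whole run is identical.
Fzd1 and Fzd2, 47 bases, chr5:4756331-4756377 (- strand) and chr11:102605740-102605786 (+ strand): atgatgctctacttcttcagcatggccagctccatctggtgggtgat
Fzd1 and Fzd7, 47 bases, chr5:4756964-4757010 (- strand) and chr1:59483344-59483390 (+ strand): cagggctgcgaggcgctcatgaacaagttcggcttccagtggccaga
Fzd2 and Fzd7, 38 bases, chr11:102606064-102606101 (+ strand) and chr1:59484298-59484335 (+ strand): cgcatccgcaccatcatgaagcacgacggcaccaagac
These runs are short beside coding sequences of 1926 bases in Fzd1, 1710 in Fzd2 and 1716 in Fzd7. Read length and the treatment of reads with several matches were not stated in the sources.

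Fzd2 (ENSMUSG00000050288.6), on chromosome 11 at 102604396 to 102608058 of mm10, is a receptor of both canonical ligands and Wnt5a. It had 263, 265, 357, 1147 and 348 scaled counts in mutants 1 to 5, against 1587, 2231, 1582, 1822 and 2625 in WT 1 to 5. Mutant 4 held at least 3 times the value of any other mutant and still lay below the lowest WT embryo. Mutants averaged 476 ± 378 and WT embryos 1969 ± 452 (SD, n = 5 each), a log2 fold change of -2.28 (SE 0.35, 95% interval -3.03 to -1.52, limma adjusted p = 0.000867; exact two-sided permutation p = 0.00794, the smallest that the assignments of 10 embryos to 2 groups of 5 allow). Mutant 4 stood at 58.2% of the WT mean and the other mutants together at 15.7%. Without mutant 4 the log2 fold change was -2.66 (limma adjusted p = 1.66e-06).

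Fzd7 (ENSMUSG00000041075.8), on chromosome 1 at 59482424 to 59486955, is the Frizzled best known from pluripotent cells and the early embryo. It had 788, 659, 852, 1403 and 717 scaled counts in mutants 1 to 5, against 2144, 2055, 2025, 2418 and 2674 in WT 1 to 5. All mutants lay below all WT embryos, and mutant 4 was again the highest mutant. Means were 884 ± 299 in mutants and 2263 ± 277 in WT embryos (SD, n = 5 each), with a log2 fold change of -1.40 (SE 0.18, 95% interval -1.80 to -1.01, limma adjusted p = 0.000301; exact permutation p = 0.00794). Mutant 4 reached 62.0% of the WT mean and the other mutants 33.3%, and without mutant 4 the log2 fold change was -1.58.

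Fzd1 (ENSMUSG00000044674.6), on chromosome 5 at 4753839 to 4758035, is the closest relative of Fzd2 and Fzd7. It had 260, 201.1, 518, 262 and 329 scaled counts in mutants 1 to 5, against 478, 548, 470, 346 and 281 in WT 1 to 5. The groups overlapped: 3 mutants lay below all WT embryos, while mutant 3 was higher than all but 1 of them. The log2 fold change of -0.47 (SE 0.25, 95% interval -1.02 to 0.08) did not pass the test (limma adjusted p = 0.196; exact permutation p = 0.151). Its interval includes no change as well as a decrease by 1.02 on the log2 scale.

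The promoters of Fzd7, which was lower in mutants, and of its relative Fzd1, which did not pass the test, are shown because TCF and LEF factors, the DNA-binding partners of β-catenin, bind short motifs of the kind searched here. RefSeq promoter sequences on GRCm38.p6 were matched for 6 members (Fzd1, Fzd4, Fzd5, Fzd7, Fzd9 and Fzd10), and the 250 bases before the RefSeq start of each gene were searched on both strands for 4 motifs of 7 bases. These were AACAAAG, found in 5.03% of 32851 RefSeq promoters of the same length, ATCAAAG, found in 3.21%, TACAAAG, found in 3.20%, and TTCAAAG, found in 4.46%. They have the same length and differ at their first bases, so no 2 of them can match at the same position and strand. Capitals mark a match.
Fzd7, chr1:59481897-59482146 (+ strand): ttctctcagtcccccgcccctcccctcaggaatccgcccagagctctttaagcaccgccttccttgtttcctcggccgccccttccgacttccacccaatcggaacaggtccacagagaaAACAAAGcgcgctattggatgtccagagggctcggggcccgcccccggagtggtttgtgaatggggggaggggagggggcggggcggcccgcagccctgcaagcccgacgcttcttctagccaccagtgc
Fzd1, chr5:4758217-4758466 (- strand): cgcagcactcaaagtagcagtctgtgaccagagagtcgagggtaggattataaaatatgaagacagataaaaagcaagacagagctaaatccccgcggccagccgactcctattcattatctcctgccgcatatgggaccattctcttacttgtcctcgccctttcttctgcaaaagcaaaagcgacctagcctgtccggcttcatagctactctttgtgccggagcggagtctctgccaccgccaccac
In the Fzd7 promoter AACAAAG begins at position -130 from the RefSeq start, and the windows of the other 5 members held none of the 4 motifs. Of all the RefSeq promoters 14.8% held at least 1 of the motifs, so 1 of 6 members is near the share of all promoters. GC content was 65.2% in the Fzd7 window, 51.2% in the Fzd1 window and 76.4% in the Fzd10 window, against a median of 52.4% over all promoters. The Fzd10 window lies within the gene as GENCODE M21 annotates it, which starts farther upstream than in RefSeq. In the same annotation the Fzd9 and Fzd4 windows lie partly within their genes, and the Fzd5 window includes the first base of its gene. The Fzd7 and Fzd1 windows end upstream of the gene starts. A match in such a window describes its letters and is not evidence of binding.

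Fzd8 and Fzd5 form the second subfamily. Fzd8 (ENSMUSG00000036904.5), on chromosome 18 at 9212163 to 9218136, is known in the mouse gastrula from the anterior visceral endoderm and the anterior mesendoderm. It had 152, 86.2, 111, 188 and 84.5 scaled counts in mutants 1 to 5, against 476, 849, 555, 423 and 430 in WT 1 to 5. The highest mutant was mutant 4, and it lay below the lowest WT embryo by more than the whole range of the mutants. Mutants averaged 124 ± 44.8 and WT embryos 547 ± 177 (SD, n = 5 each), a log2 fold change of -2.15 (SE 0.26, 95% interval -2.72 to -1.58, limma adjusted p = 0.000209; exact permutation p = 0.00794). Mutant 4 stood at 34.4% of the WT mean and the other mutants at 19.8%.

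Fzd5 (ENSMUSG00000045005.9), on chromosome 1 at 64730558 to 64737751, is required in the mouse for the vessels of the yolk sac and placenta. It was low in both genotypes, with 81.2, 20.1, 81.8, 64.7 and 72.2 scaled counts in mutants 1 to 5, against 108, 180, 86.3, 81.8 and 77.9 in WT 1 to 5. Mutant 2 lay far below the rest, and 3 mutants lay below all WT embryos. The log2 fold change of -0.81 (SE 0.39, 95% interval -1.65 to 0.04) did not pass the limma test (adjusted p = 0.149), and the exact permutation p, which is not adjusted over genes, was 0.0317. Without mutant 2 the log2 fold change was -0.44 (limma adjusted p = 0.285). Exons of Gm38058 overlap Fzd5 over 1233 bases on the opposite strand, and the chemistry does not record strand. That gene had 15 reads in all 10 embryos together, which does not show how reads over the shared bases were counted. Fzd5 may therefore have lost reads there.

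Fzd10, Fzd4 and Fzd9 form the third subfamily, in which the single rise of the family occurred. Fzd10 (ENSMUSG00000081683.5), on chromosome 5 at 128600844 to 128604093, is known from the primitive streak and later from the posterior neural tube. It had 1589, 1202, 843, 802 and 2405 scaled counts in mutants 1 to 5, against 354, 495, 409, 538 and 713 in WT 1 to 5. Mutant 5 was the highest and mutant 4 the lowest of the mutants, and all of them exceeded WT 5, the highest WT embryo. Means were 1368 ± 661 in mutants and 502 ± 139 in WT embryos (SD, n = 5 each), with a log2 fold change of 1.36 (SE 0.29, 95% interval 0.74 to 1.99, limma adjusted p = 0.00549; exact permutation p = 0.00794). Mutant 4 stood at 160% of the WT mean and the other mutants at 301%. Leaving out each embryo in turn gave log2 fold changes between 1.13 and 1.52.

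Fzd4 (ENSMUSG00000049791.3), on chromosome 7 at 89404355 to 89413134, is the receptor of Norrin in retinal vessels. It had 440, 551, 468, 306 and 632 scaled counts in mutants 1 to 5, against 395, 458, 500, 391 and 407 in WT 1 to 5. Mutants 2 and 5 lay above all WT embryos and mutant 4 below all of them, and the log2 fold change of 0.12 (SE 0.18, 95% interval -0.27 to 0.51) did not pass the test (limma adjusted p = 0.657; exact permutation p = 0.540). Fzd9 (ENSMUSG00000049551.2), on chromosome 5 at 135248938 to 135251230, is a receptor described mainly in brain and bone. It had 71.7, 101, 144, 72.8 and 102 scaled counts in mutants 1 to 5, against 84.4, 98.6, 65.9, 83.9 and 107 in WT 1 to 5. The groups overlapped over most of their range, with a log2 fold change of 0.13 (SE 0.24, 95% interval -0.39 to 0.65, limma adjusted p = 0.725; exact permutation p = 0.587). Without mutant 3, the highest embryo, its log2 fold change was -0.02, so no direction can be given.

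Fzd3 and Fzd6, the receptors of the planar cell polarity pathway with shared roles in hair orientation and neural tube closure in the mouse, form the fourth subfamily and are the only Frizzleds whose longest transcript has 7 exons. Fzd6 (ENSMUSG00000022297.14), on chromosome 15 at 39006034 to 39038188, had 158, 171, 226, 216 and 159 scaled counts in mutants 1 to 5, against 222, 303, 299, 314 and 254 in WT 1 to 5. Mutant 3 alone lay inside the WT range, above WT 1. Means were 186 ± 32.8 in mutants and 279 ± 38.8 in WT embryos (SD, n = 5 each), with a log2 fold change of -0.59 (SE 0.17, 95% interval -0.95 to -0.22, limma adjusted p = 0.0237; exact permutation p = 0.0159). The call is close to the threshold: in limma it was lost without mutant 1 (log2 fold change -0.53, adjusted p = 0.0583), mutant 2 (-0.56, adjusted p = 0.0526), mutant 5 (-0.53, adjusted p = 0.0538), WT 2 (-0.55, adjusted p = 0.05001) or WT 4 (-0.54, adjusted p = 0.0547). Fzd6 shares 152 exonic bases with Gm26704 on the opposite strand, a gene that is not analysed here.

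Fzd3 (ENSMUSG00000007989.6), on chromosome 14 at 65192449 to 65262463, had 163, 257, 207, 254 and 296 scaled counts in mutants 1 to 5, against 326, 232, 430, 389 and 356 in WT 1 to 5. WT 2 lay among the mutants, and the other WT embryos lay above all of them. Means were 235 ± 51.2 in mutants and 347 ± 74.7 in WT embryos (SD, n = 5 each), and the log2 fold change of -0.56 (SE 0.20, 95% interval -1.0 to -0.11) did not pass the limma test (adjusted p = 0.0645; exact permutation p = 0.0397). It passed with DESeq2 (log2 fold change -0.56, adjusted p = 0.0345), which called 29.4% of all tested genes, and with limma without mutant 5 (-0.65, adjusted p = 0.0496) or without WT 2 (-0.69, adjusted p = 0.0243). Its difference was thus similar in size to that of Fzd6, on the other side of the threshold.

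**Figure D2:**
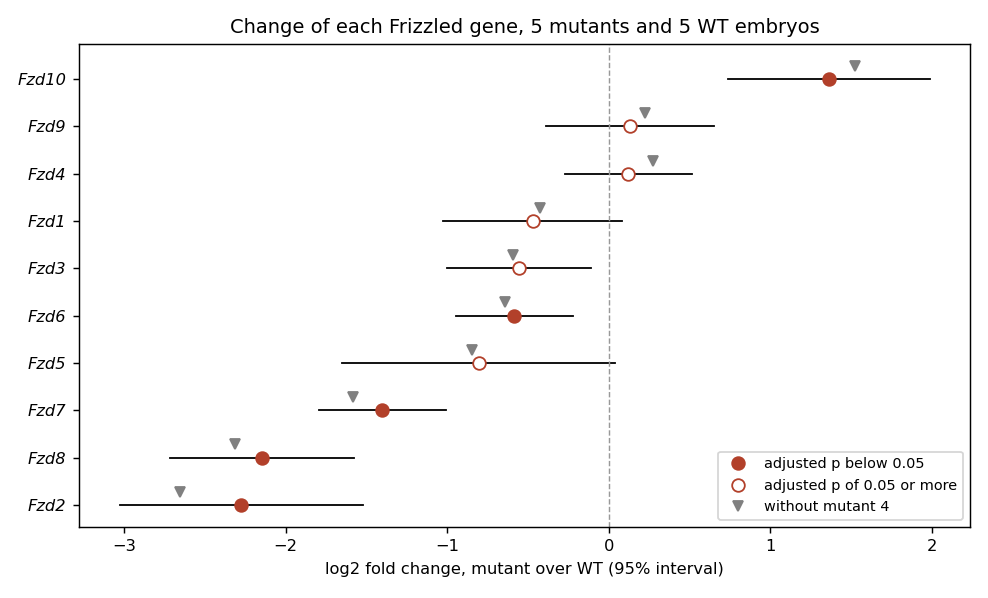
Log2 fold changes of the 10 members, mutant over WT, with 95% intervals from limma, filled circles where the adjusted p is below 0.05, open circles where it is not, and triangles for the values without mutant 4. The intervals of Fzd2, Fzd8, Fzd7, Fzd6, Fzd3 and Fzd10 exclude 0, and all but Fzd3 of these pass after adjustment over 15429 genes.

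Relatives within a subfamily were next compared directly, by the log2 ratio of 2 members in each embryo. With 1 added to each scaled count, this ratio depends on the size factor only through that 1, most for low genes. Over the 8 pairs within the subfamilies, 2 passed the exact two-sided permutation test after Benjamini-Hochberg adjustment over the 8, Fzd5 over Fzd8 and Fzd4 over Fzd10. The log2 ratio of Fzd5 to Fzd8 was -1.03 ± 0.76 in mutants and -2.37 ± 0.21 in WT embryos (SD, n = 5 each), a difference of 1.34 (exact permutation p = 0.00794, adjusted p = 0.0317) with no overlap. The log2 ratio of Fzd4 to Fzd10 was -1.43 ± 0.46 in mutants and -0.19 ± 0.45 in WT embryos, a difference of -1.24 with the same p-values and no overlap. With 1 embryo left out both passed without mutant 3 or mutant 4, and without any of the other 8 embryos their adjusted p lay between 0.0508 and 0.0635. Leaving out an embryo cannot create an overlap, so the genotypes stayed apart in all these fits. Fewer embryos allow fewer assignments, and the adjusted p also depends on the other ratios, so a lost call does not single out the embryo left out.

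The ratios that involve Fzd2 missed the threshold with all embryos and passed it without mutant 4. The log2 ratio of Fzd1 to Fzd2 was -0.42 ± 1.01 in mutants and -2.22 ± 0.62 in WT embryos, a difference of 1.81 (exact permutation p = 0.0317, adjusted p = 0.0508), which was 2.23 without mutant 4 (adjusted p = 0.0212). The log2 ratio of Fzd2 to Fzd7 was -1.09 ± 0.49 in mutants and -0.22 ± 0.25 in WT embryos, a difference of -0.87 (adjusted p = 0.0508), which was -1.07 without mutant 4 (adjusted p = 0.0212). The ratio of Fzd1 to Fzd7 differed by 0.93 (adjusted p = 0.0741), and by 1.16 without mutant 4 (adjusted p = 0.0254). Fzd9 to Fzd10 differed by -1.23 (adjusted p = 0.0508), by -1.30 without mutant 4 (adjusted p = 0.0423) and by -1.52 without mutant 3 (adjusted p = 0.0318). Fzd3 to Fzd6 differed by 0.03 (exact permutation p = 0.905) and Fzd4 to Fzd9 by -0.01 (exact permutation p = 0.976), each well inside the spread between embryos.

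**Figure D3:**
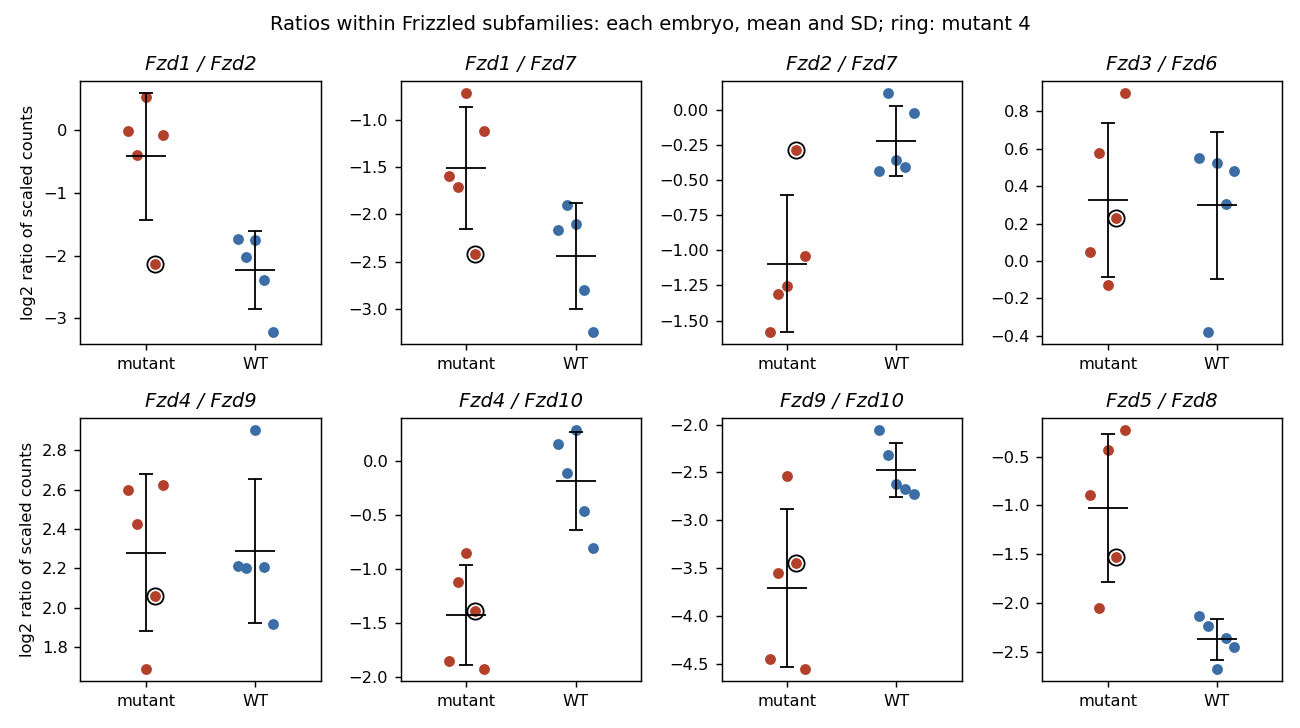
Log2 ratios of scaled counts for the 8 pairs within subfamilies, each point 1 embryo, mutants left of WT and bars at the group means. Fzd5 over Fzd8 and Fzd4 over Fzd10 separate the genotypes without overlap, and for the ratios of Fzd1 to Fzd2 and of Fzd2 to Fzd7 mutant 4 lies on the WT side of the other mutants.

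Set per kb of exon, so that members can be compared with each other, the make-up of the family differed between the genotypes. In mutants Fzd10 had the highest level, 421 ± 203 scaled counts per kb, ahead of Fzd7 at 195 ± 66.0 and Fzd2 at 130 ± 103 (SD, n = 5). This order of Fzd10 over both others held in 4 of 5 mutants: in mutant 4 Fzd2 had 313 and Fzd7 310 per kb, above Fzd10 at 247, and without mutant 4 the mean of Fzd2 was 84.2 per kb. In WT embryos Fzd2 had the highest mean, 538 ± 123 per kb, ahead of Fzd7 at 499 ± 61.1 and Fzd10 at 154 ± 42.6 (SD, n = 5), although Fzd7 exceeded Fzd2 in 3 of 5 WT embryos. Below these came Fzd1, with 74.8 ± 29.2 per kb in mutants and 101 ± 25.9 in WT embryos, and Fzd4, with 71.3 ± 18.3 in mutants and 64.0 ± 7.03 in WT embryos. Fzd8 had 20.8 ± 7.5 per kb in mutants, the eighth place in the order, and 91.5 ± 29.6 in WT embryos, the fifth place.

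Fzd3 and Fzd5 held the last places of the order in both genotypes, and Fzd9 and Fzd6 changed places. Fzd9 had 42.9 ± 12.9 per kb in mutants and 38.4 ± 6.88 in WT embryos, Fzd6 had 38.6 ± 6.81 in mutants and 57.8 ± 8.05 in WT embryos, and Fzd3 had 18.4 ± 4.0 in mutants and 27.1 ± 5.84 in WT embryos. Fzd5 was last in both, with 9.25 ± 3.69 per kb in mutants and 15.4 ± 6.16 in WT embryos. The order rests on annotated exon lengths. Fzd3 has 12804 exon bases and a coding sequence of 1998. Before division by length its WT mean of 347 scaled counts exceeded that of Fzd6, 279. Most neighbours in the order overlapped between embryos: in mutants only Fzd6 over Fzd8 and Fzd3 over Fzd5 did not, and in WT embryos only Fzd7 over Fzd10 did not.

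Summed over the family, mutants had 1022 ± 183 scaled counts per kb, with a range of 834 to 1291, and WT embryos 1587 ± 199, with a range of 1392 to 1864. Fzd10 made up 50.1%, 44.3%, 29.0%, 22.1% and 57.3% of this sum in mutants 1 to 5, against 7.82%, 8.93%, 8.85%, 10.7% and 11.8% in WT 1 to 5. The lowest mutant share, that of mutant 4, was above the highest WT share. Fzd2 and Fzd7 together made up 31.7% ± 14.2 in mutants and 65.2% ± 3.36 in WT embryos (SD, n = 5 each). Mutant 4 had 55.9% for these genes, below the lowest WT share of 61.9%, and the other mutants 19.6% to 31.9%. Shares within a sum depend on each other, so they are given as a description without a test.

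**Figure D4:**
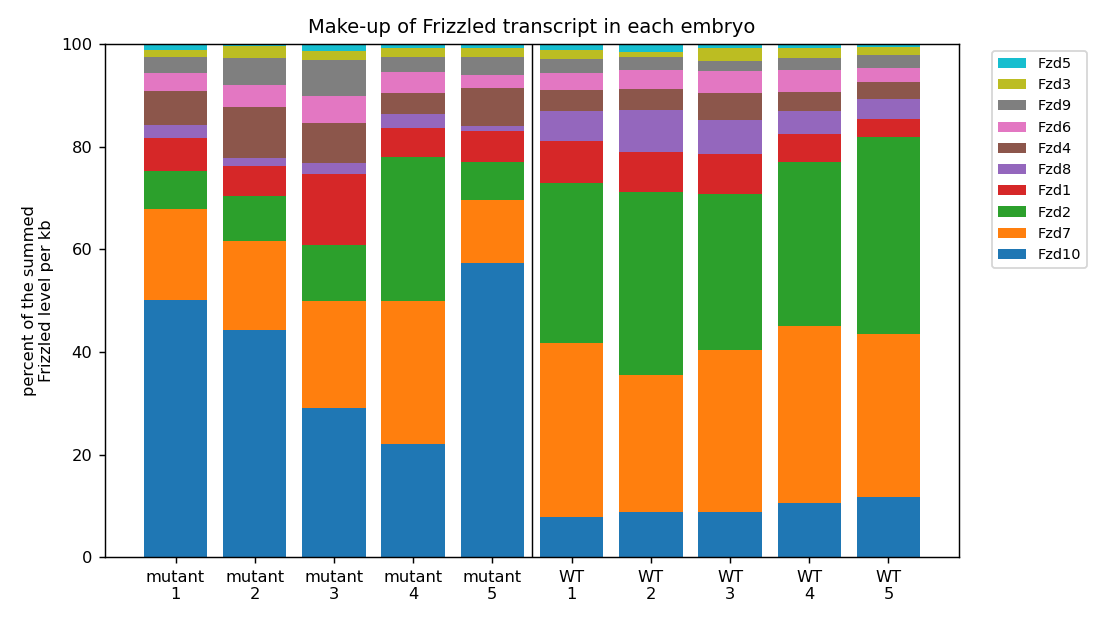
Share of each Frizzled gene in the summed level per kb of exon, in percent, 1 stacked bar per embryo with mutants left of WT. Fzd10 takes 22.1% to 57.3% of mutant bars and 7.82% to 11.8% of WT bars, and the share of Fzd2 in mutant 4, 28.1%, lies between those of the other mutants and WT.

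Marker lists of embryonic tissues differed between the same embryos. Paraxial mesoderm markers summed to 1548 scaled counts in mutant 4 and 141 to 221 in the other mutants, against 4207 to 5595 in WT embryos, and 5 of 6 were lower, where 13.8% of all tested genes were. In mutant 4 Meox1 of this list went the other way, with 241 scaled counts against at most 107 in WT embryos. Ectoderm and neural plate markers summed to 874 in mutant 4 and 322 to 502 in the other mutants, against 1520 to 1750 in WT embryos, with 4 of 6 tested markers lower. In mutant 4 Sox1 (37.4) and Pax6 (15.2) exceeded every WT embryo and Hesx1 (121) equalled the highest. Sox2, Six3, Otx2 and Zic2 lay below every WT embryo there. Epiblast markers summed to 13536 to 17330 in mutants and 35407 to 48032 in WT embryos, with 4 of 5 lower. Node markers summed to 365 in mutant 4 and 67.4 to 171 in the other mutants, against 1201 to 1646 in WT embryos, with 4 of 4 lower. These sums moved in the direction of Fzd2, Fzd7 and Fzd8. The sum of the definitive endoderm markers given below did so too, through 2 of its 4 genes.

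The remaining lists went in different directions. Allantois markers summed to 3124 to 8619 scaled counts in mutants and 523 to 1064 in WT embryos, with 3 of 4 higher, where 11.4% of all tested genes were higher. Primitive streak markers summed to 2613 in mutant 4 and 6370 to 10801 in the other mutants, against 4280 to 6270 in WT embryos, with 2 higher and 2 lower of 5. Mixl1 (log2 fold change 2.32) and Fgf8 (0.89) were higher, T (-1.62) and Wnt3 (-1.08) were lower, and Eomes did not pass. Mixl1 weighed most in the sum, with means of 4101 in mutants and 768 in WT embryos. Definitive endoderm markers summed to 3469 to 5012 in mutants and 6099 to 10621 in WT embryos, with 2 of 4 lower. Trh and Cer1 were lower. Sox17, with means of 3443 in mutants and 2873 in WT embryos, and Foxa2, with 504 and 628, did not pass. Visceral endoderm markers summed to 61380 in mutant 4 and 103022 to 107875 in the other mutants, against 69113 to 93583 in WT embryos, with 1 of 8 higher. Blood and endothelium markers summed to 11424 in mutant 4 and 3503 to 5213 in the other mutants, against 2603 to 3640 in WT embryos, with 2 of 8 higher. Of the decidua markers 2 of 5 were higher. Of the extra-embryonic ectoderm and trophoblast markers 0 of 7 passed, and of the parietal endoderm markers 0 of 4. Among the trophoblast markers Tpbpa had 390 scaled counts in mutant 4 and at most 1.14 in any other embryo, and no marker of any list was at 0 in all embryos. The part of any of these tissues in the Frizzled values was not tested.

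Genes whose centred log2 profiles over the 10 embryos lay closest to a called member were found by the mean absolute difference, 3 for each member. For Fzd7 they were Tcf7l1, a TCF factor that represses WNT targets, at 0.12 log2 units, the DNA methyltransferase gene Dnmt3a at 0.13 and the fatty acid desaturase gene Fads2 at 0.14. Tcf7l1 averaged 1180 scaled counts in mutants and 3224 in WT embryos. For Fzd10 the closest was Wnt5b, a ligand of β-catenin-independent signalling, at 0.13, with a mean of 1215 in mutants and 506 in WT embryos. Cox4i2 at 0.19 and Lingo1 at 0.20 came after it. For Fzd2 they were Nptx2 at 0.18, Sall2 at 0.19 and Megf6 at 0.19; for Fzd8 Tmem121 at 0.27, Lhx1, a LIM homeobox gene of anterior mesendoderm, at 0.27, and Galnt6 at 0.28. For Fzd6 Pycard at 0.10, Vps13d at 0.12 and Etnk1 at 0.12 were closest. All these profiles share the difference between 2 genotypes over the same 10 embryos, so the likeness is given as a description without a test.

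The other receptor-side genes of the pathway were counted by role. Over 67 distinct tested genes in 7 lists, 38 (56.7%) passed the limma test, 15 higher and 23 lower, and their median log2 fold change was -0.07. Of all tested genes 25.1% passed, 11.4% higher and 13.8% lower. Of the co-receptors and receptor partners 12 of 13 were tested, 2 were higher, 2 lower and 8 did not pass, with a median of -0.11. Lrp6 (log2 fold change 0.01, limma adjusted p = 0.977) and Lrp5 (-0.26, adjusted p = 0.279), the co-receptors of canonical signalling, did not pass. Of the receptors that bind Wnt5a, Ror1 and Ror2 were lower, and Ryk did not pass (0.11, adjusted p = 0.442). Ror1 averaged 93.4 ± 104 in mutants and 612 ± 145 in WT embryos (log2 fold change -3.15, SE 0.46, limma adjusted p = 0.000689), with 279 in mutant 4 and a mean of 47.0 in the other mutants, and without mutant 4 its log2 fold change was -3.67. Ror2 averaged 613 ± 255 in mutants and 1433 ± 243 in WT embryos (-1.29, SE 0.23). Tspan12, the partner of Fzd4 in Norrin signalling, was higher (1.40, SE 0.24), as was Lypd6 (1.19, SE 0.25), which enhances Lrp6 signalling in zebrafish.

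Genes that set the amount of Frizzled at the membrane moved in both directions. Of 11 receptor turnover genes 9 were tested, 4 higher and 3 lower, with a median log2 fold change of 0.90. Over all tested genes 11.4% were higher and 13.8% lower. Rnf43, a ubiquitin ligase that removes Frizzleds from the surface, averaged 252.3 ± 104 scaled counts in mutants and 58.1 ± 15.0 in WT embryos (log2 fold change 2.05, SE 0.28, limma adjusted p = 0.000487), while its relative Znrf3 did not pass (0.38, adjusted p = 0.0998). R-spondins, which block these ligases, split: Rspo4 was higher (2.31, SE 0.38), and Rspo3 (-1.22, SE 0.18) and Rspo1 (-2.78, SE 0.47) were lower. The level of Rspo4 was low, at 31.3 to 40.6 scaled counts in mutants and 3.03 to 11.3 in WT embryos, the lowest of them at the floor.

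Of 13 genes for Dishevelled and its regulators 4 were higher, 2 lower and 7 did not pass, with a median log2 fold change of -0.07. Over all tested genes 11.4% were higher and 13.8% lower, so the count of lower genes in this list is near that share. Dvl2 was lower, with 2050 ± 142 scaled counts in mutants and 3055 ± 582 in WT embryos (-0.56, SE 0.12, limma adjusted p = 0.00670), and Dvl1 (-0.30, adjusted p = 0.127) and Dvl3 (-0.33, adjusted p = 0.123) did not pass. The Dishevelled-binding inhibitors Nkd2 (2.99) and Nkd1 (2.44) and the formin Daam2 (1.39) were higher, and the Dishevelled-binding Ccdc88c (-1.33) was lower.

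Of 20 Frizzled ligand genes 18 were listed and 15 tested, of which 4 were higher and 5 lower (3 lower with edgeR), with a median log2 fold change of 0.06. Over all tested genes 11.4% were higher and 13.8% lower, the shares beside which each list of this paragraph stands. Wnt4 (2.02), Wnt11 (1.42) and Wnt5a (1.25), which often act without β-catenin, were higher, as was Wnt5b (1.22). Lower were Wnt2b (-3.27), Wnt2 (-1.19), Wnt3a (-2.51), Wnt8a (-4.17) and, near the threshold, Wnt3 (-1.08, limma adjusted p = 0.0479). In mutant 4 Wnt3a (299 scaled counts) and Wnt8a (329) lay inside the WT range. Wnt2b had 1.89 to 20.2 scaled counts in mutants, in part below the floor, and 46.5 to 123 in WT embryos. Among other proteins with a Frizzled-type cysteine-rich domain, 6 of 8 tested were lower and 0 higher, with a median of -1.33. Besides Ror1 and Ror2 these included the secreted WNT-binding protein gene Sfrp2 (-1.55) and Smo, the class F relative that carries the Hedgehog signal, at 3347 ± 553 in mutants and 6010 ± 695 in WT embryos (-0.85, SE 0.12, limma adjusted p = 0.000671). Of the genes for WNT secretion, Porcn, whose enzyme attaches the lipid, was lower (-0.89), and Wls, whose product carries WNTs to the surface, was higher (0.73). The call of Wls was lost without any 1 of mutants 1, 2 and 3, WT 1 and WT 5 (log2 fold changes 0.69, 0.66, 0.71, 0.68 and 0.71). Of 10 planar polarity partners 6 were lower and 0 higher, with a median of -0.61, among them Celsr2 (-3.08), Celsr3 (-1.85), Ankrd6 (-1.49) and Vangl2 (-0.58).

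**Figure D5:**
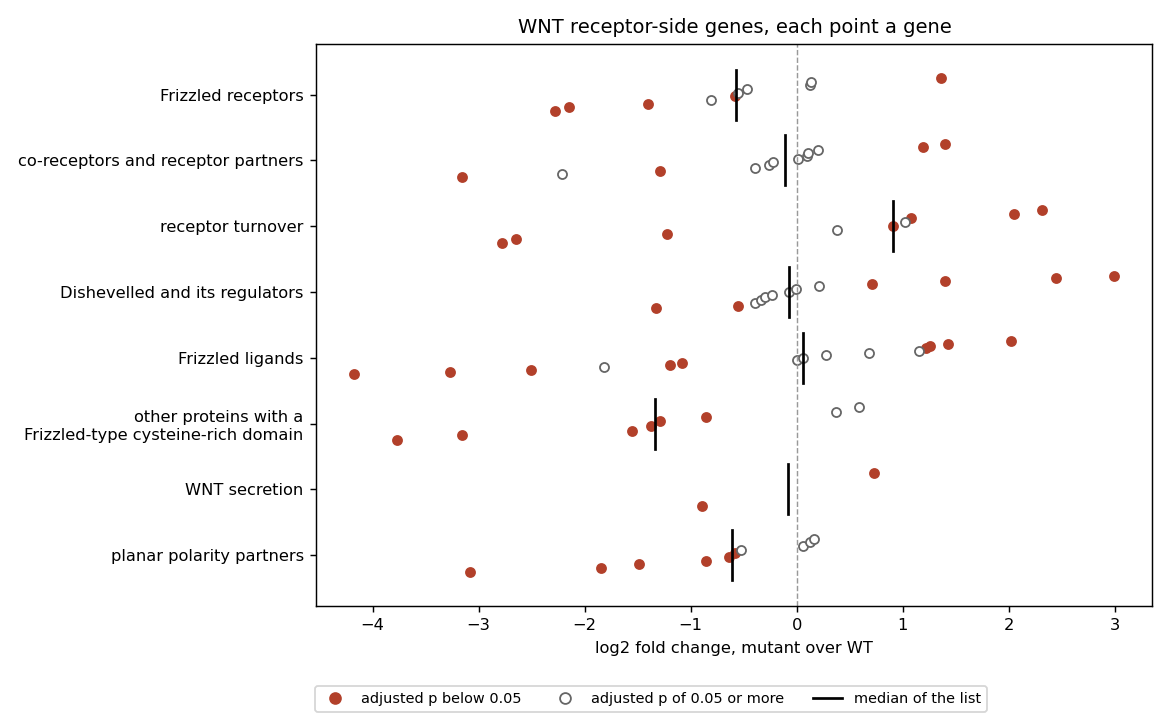
Log2 fold changes, mutant over WT, of the tested Frizzled genes and of 7 lists of receptor-side WNT genes, each point 1 gene, filled where the limma adjusted p is below 0.05, with a bar at the median of the list. The medians lie at -0.57 for the Frizzled genes, 0.90 for receptor turnover and -1.33 for other proteins with the cysteine-rich domain, and most lists hold filled points on both sides of 0.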

How the data were processed

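RNA of whole embryos was amplified with SMART-Seq v4, which does not record strand, and sequenced. Per the submitters' processing notes, cutadapt 1.6, STAR 2.5.0a, HTSeq 0.5.3 and DESeq were used, with build mm10. The authors deposited 1 signal per gene and embryo, read counts divided by a size factor (0.881 to 1.20). All 200060 of 200060 values (100%) were whole reads within 0.01 reads. The 10 columns were matched by the labels' descriptions.

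Genes with a mean of at least 10 were compared with limma 3.58.1 (R 4.3.3, intensity trend) on log2(scaled count + 1), a scale that understates the change of low genes, with Benjamini-Hochberg adjustment over 15429 genes. On the recovered reads, edgeR 4.0.16 (quasi-likelihood test) called 3596 genes and DESeq2 1.42.0 called 4533, against 3877. Ratios were tested by exact two-sided permutation over all assignments of the embryos. Alternatives changed the filter, pseudocount, scaling, tool, block or embryos. The fitting steps were tested on simulated data. No molecular identifiers were used, so the floor covers counting error only.

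Gene coordinates are from GENCODE M21 (99.65% of IDs matched). The members and lists were chosen with earlier results of these data known. Named genes were all Frizzleds, both Axin genes, up to 4 called members per list with the smallest adjusted p, Lrp5, Lrp6, Dvl1 to Dvl3, Smo and the 3 closest profiles of each called member, leaving out predicted genes and pseudogenes. The other called ligands were named too, as were single markers where members of a list differed.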

Additional observations from a re-analysis of the deposited data

Results flagged for a closer look

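In 3 of the 24 groups of 5 embryos examined (each Frizzled and Axin gene in each genotype), 1 embryo lay farther from the rest than the Dixon limit of 0.71 for the gap over the range, and chance flags about 1 in 20 such groups. Fzd2 in mutant 4 (1147 scaled counts, gap over range 0.894) was far above the other mutants, as was Fzd7 in mutant 4 (1403, gap over range 0.740). Fzd5 in mutant 2 (20.1 scaled counts, gap over range 0.723) was far below the other mutants.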

How the results depend on the processing

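Fzd2, Fzd7, Fzd8 and Fzd10 kept their direction and their side of the threshold under all 19 alternatives, and the number of Frizzled genes called ran from 4 to 6. Fzd3 passed with DESeq2 (-0.56), and over the fits that leave out 1 embryo its log2 fold change ran from -0.69 to -0.43 and that of Fzd6 from -0.66 to -0.53, with the gains and losses of calls given beside these genes. Over the same fits the difference in log2 ratio ran from 1.56 to 2.23 for Fzd1 to Fzd2, 0.73 to 1.16 for Fzd1 to Fzd7, -1.07 to -0.75 for Fzd2 to Fzd7, -1.40 to -1.12 for Fzd4 to Fzd10, -1.52 to -1.02 for Fzd9 to Fzd10 and 1.14 to 1.598 for Fzd5 to Fzd8. Over the same fits the number of all genes called ran from 2505 (without WT 5) to 4535 (without mutant 4), and those higher in mutants from 1071 (without WT 5) to 2061, while DESeq2 called 2209 higher. Fewer embryos enter each of these fits, and the cause of the changes was not tested further. Among the other genes, Wls lost its call under 7 alternatives. Shares by longest transcript moved by less than the spread between embryos, but this alternative could change little. The longest transcript is shorter than the union of exons only for Fzd3 (12734 against 12804 bases) and Fzd6 (4325 against 4818). How the order per kb depends on the annotated lengths themselves was not tested.

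Same-numbered embryos showed no clear shared deviation (correlations of -0.0787 to 0.0787). Of 5 mutants 1, and of 5 WT embryos 2, correlated best with their own number. The main tests did not pair them, and weak correlations over 5 pairs cannot exclude shared litters. With a replicate block limma called 3253 genes and 5 Frizzled genes. For the ratios the block used sign flips, which cannot give a p below 0.0625, and Fzd4 to Fzd10 (-1.24) and Fzd5 to Fzd8 (1.34) then had an adjusted exact permutation p of 0.125. The lowest read count of a Frizzled gene in an embryo was 21 (Fzd5, mutant 2), so counting error limits that value most.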
